A study of Mus musculus with 8 samples.

Results

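The genes described here are 9 members of the Nedd4 ubiquitin ligase system: the HECT-type ligases Nedd4, Nedd4l, Itch, Wwp1, Wwp2, Smurf1 and Smurf2, and their membrane adaptors Ndfip1 and Ndfip2. They were chosen on measured values, because Nedd4 was higher in Ncoa6-KO than in Ncoa6-sufficient macrophages, and the question was whether its relatives shared that rise. The table of RNA-seq counts lists 50615 genes, and all 9 members were among the 17625 genes that passed the filter on low counts (a sum of at least 10 over the 8 libraries). In short, none of the 8 other members passed the test for a knockout effect in either condition. Only 1.88% of all genes passed in medium and 3.59% after stimulation, so few or no calls were likely among 8 genes. The count alone therefore does not show that the relatives differ from other genes. Wwp1 after stimulation missed the threshold in the main fit but passed with some other settings. Stimulation lowered Wwp1 and Smurf2 and raised Smurf1 in both genotypes.

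Bone marrow-derived macrophages (BMDMs) from C57BL/6 mice were grown for 6 days with M-CSF at 20 ng/ml. Ncoa6-KO cells carried the genotype Ncoa6 fl/fl LysM-CRE, and Ncoa6-sufficient cells, which the labels call WT, carried the same floxed Ncoa6 alleles without Cre. Each genotype was left in medium only or received LPS (100 ng/ml, 4 h) followed by monosodium urate crystals (MSU; 200 µg/ml, 2 h), with 2 libraries, from different mice, in each of the 4 groups. Cre is driven by the LysM (Lyz2) gene, which is active in myeloid cells, so loss of Ncoa6 depends on how many cells of a culture recombined, and the controls had no Cre of their own. No age or sex was given for the mice.

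Nedd4-family ligases hold a lipid-binding C2 domain, several WW domains and a catalytic HECT domain. The WW domains bind PY motifs (a proline-rich stretch ending in tyrosine) on substrates or on adaptors, and the HECT domain takes ubiquitin from a conjugating enzyme before passing it to the substrate. The Ndfip proteins sit in endosomal and Golgi membranes, carry PY motifs and recruit and activate the ligases. The family is best known for limiting receptor, transporter and signalling protein levels: in T cells Itch with Ndfip1 restrains activation through JunB, in epithelia Nedd4l (Nedd4-2) removes the epithelial sodium channel from the surface, and the Smurf proteins act on TGF-beta and BMP signalling.

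The libraries summed to between 25281955 and 33673552 counts. Ncoa6, the targeted gene, was lower in every KO library, with normalized counts (counts scaled to a mean effective library of 29332189) of 1515 and 1405 in Ncoa6-sufficient medium, 784 and 622 in Ncoa6-KO medium, 1297 and 1173 in Ncoa6-sufficient LPS + MSU, and 563 and 526 in Ncoa6-KO LPS + MSU. The log2 fold change was -1.05 in medium (SE 0.117, edgeR adjusted p = 0.00236) and -1.18 after LPS + MSU (SE 0.124, adjusted p = 0.00189), n = 2 per group; without sufficient medium replicate 1 the first lost its call (adjusted p = 0.0515). These counts are of the whole gene and not of the floxed exon. All 8 macrophage markers were detected in every group, but their summed normalized count was lower in KO cells, at 248932 to 288002 against 388720 to 456129 in medium and 366954 to 393408 against 507971 to 577703 after LPS + MSU. Most of that gap was Lyz2, the gene that carries Cre in KO mice, at mean normalized counts of 119774 in KO against 240995 in sufficient medium. Over all genes, 1.88% were called for the KO effect in medium and 3.59% after LPS + MSU. The log2 fold changes of the 8 ran from -2.05 to -0.05 in medium and from -1.38 to -0.05 after LPS + MSU, with 3 called lower in edgeR in each. These were Lyz2 (-1.01, adjusted p = 0.0172), Fcgr1 (-2.05, adjusted p = 0.0115) and Cd14 (-0.78, adjusted p = 0.0298) in medium, and Lyz2 (-0.95, adjusted p = 0.0142), Fcgr1 (-1.38, adjusted p = 0.0353) and Itgam (-0.51, adjusted p = 0.0412) after LPS + MSU. In medium those on Lyz2 (-0.81 and -0.92) and Fcgr1 (-1.66 and -1.71) were lost without sufficient medium replicate 1 or KO medium replicate 2, and that on Cd14 without any library but KO medium replicate 1 and sufficient LPS + MSU replicate 1 (-0.91 to -0.59). After LPS + MSU those on Lyz2 (edgeR adjusted p of 0.0639 to 0.156) and Fcgr1 (-1.75 to -1.09 on the log2 scale) were lost without any stimulated library but sufficient replicate 2, and that on Itgam without any library but those of KO medium (-0.60 to -0.43). With only the 4 libraries compared the calls on Fcgr1 and Itgam after LPS + MSU were lost too (edgeR adjusted p = 0.0667 and 0.102). In medium Itgam passed, lower in KO cells, with DESeq2 (-0.39, adjusted p = 0.0228) and in edgeR without a filter (-0.41, adjusted p = 0.0193). It also passed there in edgeR with a replicate block across all groups (0.00886) or within each genotype (1.14e-04). All 5 T and NK cell markers were at 0 or at most 2.77 normalized counts summed.

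Nedd4, the founding member of the family, was scarce in Ncoa6-sufficient cells and more abundant in Ncoa6-KO cells. In medium its normalized counts were 99.8 and 73.1 in the Ncoa6-sufficient libraries and 417 and 427 in the Ncoa6-KO libraries. After LPS + MSU they were 84.5 and 66.1 in the Ncoa6-sufficient libraries and 238 and 305 in the Ncoa6-KO libraries. All 4 KO libraries lay above all 4 sufficient libraries, the lowest KO value being that of a stimulated culture. The log2 fold change of KO over sufficient was 2.28 in medium (SE 0.184, 4.85-fold) and 1.85 after LPS + MSU (SE 0.207, 3.60-fold), n = 2 per group. As this difference chose the gene set, it is given as a description with no test, and no count of KO effects in the family includes it. Behind these levels stood raw counts of 48 to 133 in sufficient and 182 to 600 in KO libraries. In bulk RNA, more cells that express Nedd4 and more Nedd4 RNA per cell cannot be told apart.

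Because Nedd4 is the member that differed, the bases around its starts are shown. RefSeq promoter windows (250 bases before to 50 after a start, build GRCm38.p6) were read for 5 of the 9 members, with 6 windows in all. Nedd4l, Ndfip1, Itch and Wwp1 were not covered, which does not mean that RefSeq holds no window for them. The letter matches below therefore say nothing about these genes, Nedd4l, the closest relative of Nedd4, included. Nedd4 had both of its windows on the forward strand of chromosome 9, and capitals mark matches, on either strand, to the letters of a GC box (GGGCGG), of an AP-1 site (TGAGTCA) or of a TATA box (TATAAA).
Nedd4, chr9:72662081-72662380: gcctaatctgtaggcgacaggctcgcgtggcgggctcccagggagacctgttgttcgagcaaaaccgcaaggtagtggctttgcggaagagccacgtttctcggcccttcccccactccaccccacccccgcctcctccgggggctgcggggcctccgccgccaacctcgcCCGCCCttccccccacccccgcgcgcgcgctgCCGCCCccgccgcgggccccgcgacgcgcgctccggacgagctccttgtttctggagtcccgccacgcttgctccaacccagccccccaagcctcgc
Nedd4, chr9:72693048-72693347: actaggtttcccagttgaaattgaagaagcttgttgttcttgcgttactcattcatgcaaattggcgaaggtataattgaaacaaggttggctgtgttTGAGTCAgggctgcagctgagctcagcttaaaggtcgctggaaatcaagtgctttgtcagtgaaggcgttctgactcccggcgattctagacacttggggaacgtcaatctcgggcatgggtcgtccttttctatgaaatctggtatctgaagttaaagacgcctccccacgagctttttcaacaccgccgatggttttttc
The upstream window held 35 CpG dinucleotides and 2 GGGCGG matches, both on the reverse strand, and the downstream window held 13 CpG and 1 AP-1 match. Over the 32851 windows in the table the median was 7 CpG, 35.7% held a GC box match, 5.20% an AP-1 match and 13.6% a TATA box match. The nuclear receptor half-site AGGTCA, searched because Ncoa6 is a coactivator of nuclear receptors, was in 0 of these 6 member windows and in 16.3% of all windows. These are letter matches only. Reads were summed per gene, so which start the Nedd4 transcripts used was not measured.

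The other 6 ligases and the adaptors were compared between genotypes in the same fit. In medium, 0 of the 8 passed (edgeR quasi-likelihood test, Benjamini-Hochberg adjusted p under 0.05 over all genes), where 1.88% of all 17625 genes did. Their log2 fold changes ran from -0.08 to 0.18 with a median of 0.05, against a median of -0.03 over all genes, and their adjusted p-values from 0.667 to 0.934. No member had an unadjusted p under 0.05. The highest upper 95% confidence bound among the 8 was 0.47, a 1.39-fold rise. After LPS + MSU, again 0 of the 8 passed, where 3.59% of all genes did; log2 fold changes ran from -0.07 to 0.47 with a median of 0.07, against 0.00 over all genes, and adjusted p-values from 0.103 to 0.908. The highest upper bound was then 0.78, or 1.72-fold, that of Wwp1. Groups did not overlap for 2 of the 8 in medium and 4 of the 8 after LPS + MSU, against 43.1% and 47.4% of all genes.

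**Figure D1:**
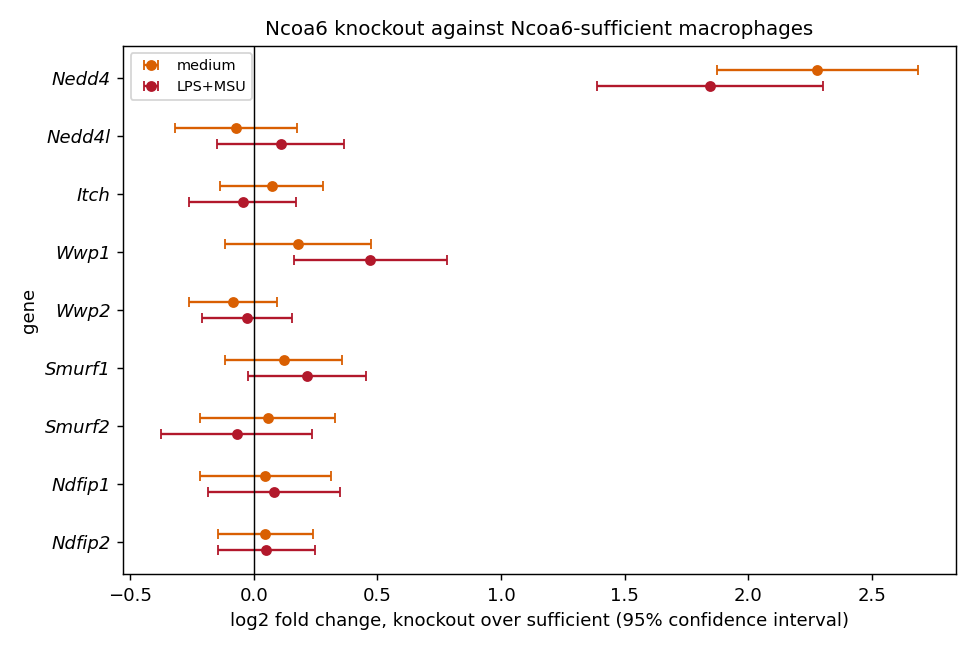
Log2 fold change of Ncoa6-KO over Ncoa6-sufficient BMDMs (horizontal axis) for each of the 9 genes in medium and after LPS + MSU. Points are edgeR estimates and bars 95% confidence intervals from 2 libraries per group. Nedd4 stands at 2.28 and 1.85 while the other 8 lie between -0.08 and 0.47. The difference in Nedd4 chose the gene set, so its bars are a description and no test.

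Wwp1, a ligase closely related to Itch and Wwp2 and the most abundant family member in medium, came nearest to sharing the rise. After LPS + MSU its normalized counts were 1438 and 1461 in Ncoa6-sufficient and 1962 and 2057 in Ncoa6-KO libraries, so the groups did not overlap. The log2 fold change was 0.47 (SE 0.14, 95% interval 0.16 to 0.78, 1.39-fold), with an unadjusted p of 0.00657 and an edgeR adjusted p of 0.103, which missed the threshold. It passed in edgeR without a filter on low counts (adjusted p = 0.00236), with a replicate block across all groups (0.0225) or within each genotype (7.94e-04), without KO medium replicate 1 (0.0164) and without KO medium replicate 2 (0.0170), at log2 fold changes of 0.43 to 0.49 over all the alternatives tried. In medium its values were 6989 and 6696 in Ncoa6-sufficient and 9015 and 6464 in Ncoa6-KO libraries, which overlapped, and the log2 fold change of 0.18 (SE 0.134, adjusted p = 0.667) turned to -0.08 without KO medium replicate 1. The KO effect on Wwp1 did not differ detectably between conditions (interaction 0.29 on the log2 scale, SE 0.194, adjusted p = 0.912).

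**Figure D2:**
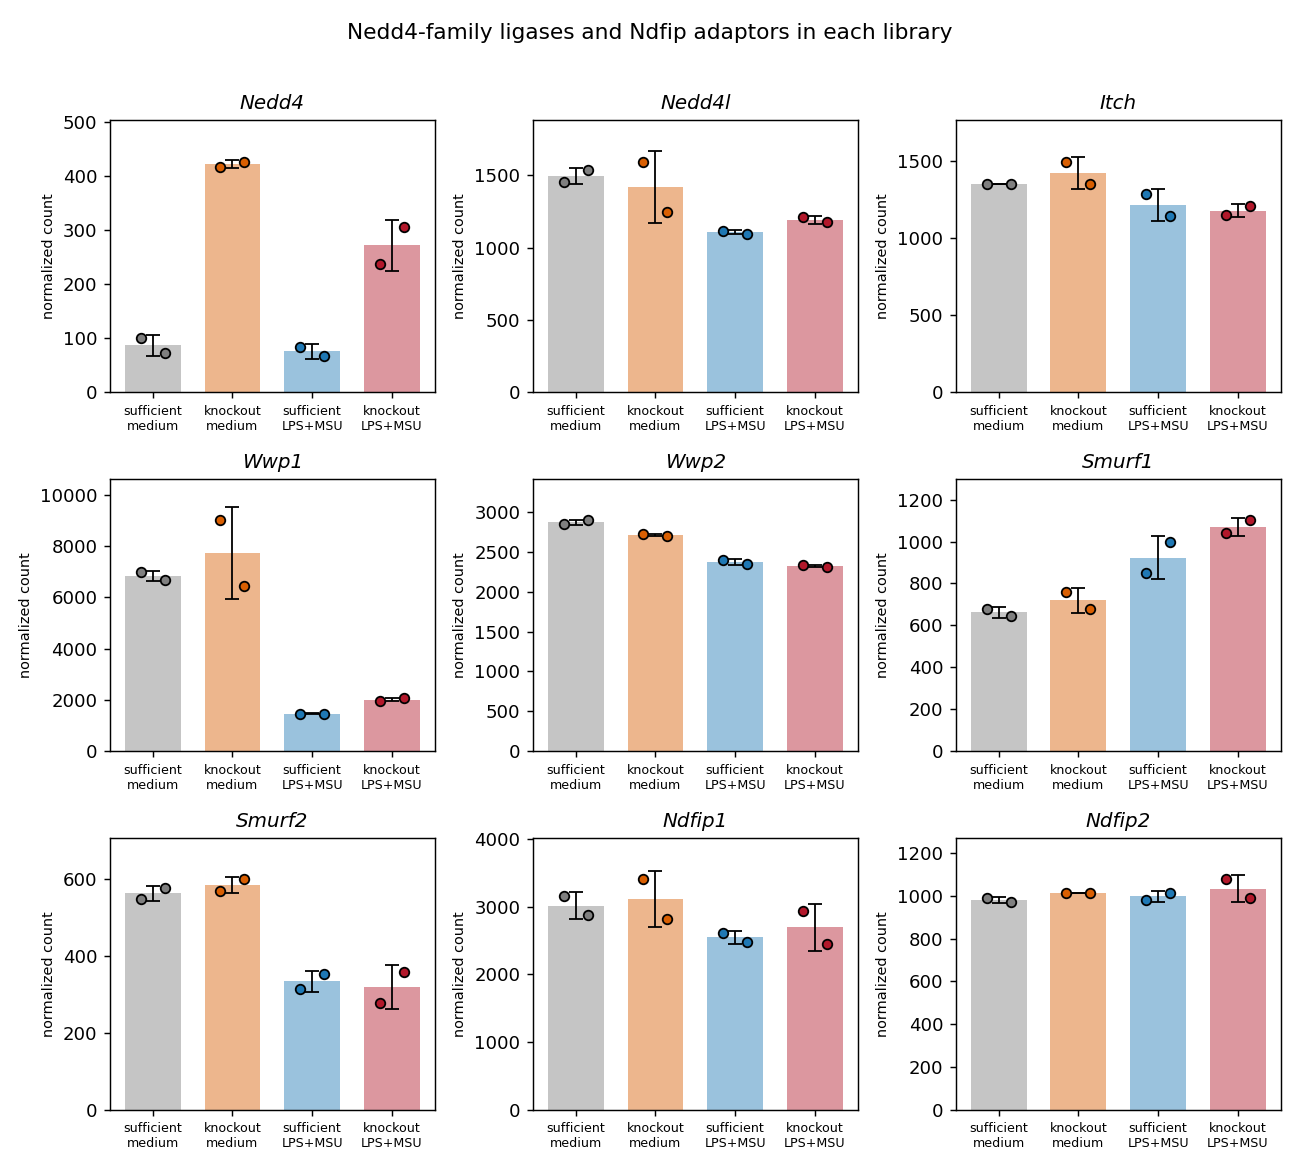
Normalized count (vertical axis, from 0) of each of the 9 genes in the 4 groups. Bars are means, error bars SD and points the 2 libraries of a group; Nedd4 is higher in all 4 KO libraries, and Wwp1 falls from between 6464 and 9015 in medium to between 1438 and 2057 after LPS + MSU.

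Nedd4l, the closest relative of Nedd4, showed no such difference. Its normalized counts in medium were 1456 and 1535 in Ncoa6-sufficient and 1595 and 1244 in Ncoa6-KO libraries, with the 2 KO values on either side of the sufficient ones. The log2 fold change was -0.07 (SE 0.112) in medium and 0.11 (SE 0.117) after LPS + MSU, where the counts were 1117 and 1096 against 1211 and 1174. Itch, whose loss causes inflammatory disease in mice, had values of 1354 and 1354 against 1497 and 1350.5 in medium, and of 1288 and 1140.3 against 1147 and 1206 after LPS + MSU, at log2 fold changes of 0.07 (SE 0.0944) and -0.05 (SE 0.0978). For both genes the intervals left room for changes of at most 1.29-fold upward.

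Wwp2, which ubiquitinates the Toll-like receptor adaptor TRIF among others, was the most tightly measured ligase. Its normalized counts were 2849.8 and 2896 in Ncoa6-sufficient and 2720.3 and 2703 in Ncoa6-KO medium, and 2395 and 2343 against 2333 and 2316 after LPS + MSU. KO libraries were the lower ones in both conditions, by log2 fold changes of -0.08 (SE 0.0809) and -0.03 (SE 0.0824) that did not pass. Smurf1 leaned the other way, with 680.0 and 643 against 759.9 and 678 in medium and 849 and 996 against 1039 and 1101 after LPS + MSU, at log2 fold changes of 0.12 (SE 0.107) and 0.21 (SE 0.108). Smurf2, its closest relative, gave 548 and 575 against 569 and 599 in medium and 314 and 353 against 278 and 358 after LPS + MSU, with overlap in both conditions. Of the adaptors, Ndfip1 gave log2 fold changes of 0.05 (SE 0.119) and 0.08 (SE 0.121) with overlapping groups, and Ndfip2 0.05 (SE 0.0867) and 0.05 (SE 0.0895).

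Whether the KO effect depended on the stimulus was asked with the interaction term. It passed for 0 of the 8 other members and for 0% of all genes in edgeR, where the smallest adjusted p of any gene was 0.163 and 1045 genes had an unadjusted p under 0.05; DESeq2 called 43 genes. The log2 interaction of the 8 ran from -0.13 to 0.29, and Nedd4, described only, was at -0.43 (SE 0.28).

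Stimulation with LPS + MSU changed a large part of the transcriptome, and the members followed it unequally. In Ncoa6-sufficient cells 5 of the 9 passed the test, 1 higher and 4 lower, where 55.2% of all genes did. In Ncoa6-KO cells 6 of the 9 passed, 1 higher and 5 lower, where 53.1% of all genes did, so the number called was near the background in both genotypes. The 5 lower include Nedd4, whose level in Ncoa6-KO medium was among the values that chose the set. The median log2 fold change over the members was -0.24 and -0.25, against -0.12 and -0.07 over all genes; with the DESeq2 size factors the median over all genes in Ncoa6-sufficient cells moved to 0.00, and changes below are relative to the first scale. Groups did not overlap for 78.5% and 76.5% of all genes. The TMM factors behind this scale were 1.23 to 1.29 in medium and 0.766 to 0.829 after LPS + MSU.

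Wwp1 fell most. From 6989 and 6696 normalized counts in Ncoa6-sufficient medium it went to 1438 and 1461, and from 9015 and 6464 in Ncoa6-KO medium to 1962 and 2057. The log2 fold change was -2.24 (SE 0.143, adjusted p = 1.55e-07) in Ncoa6-sufficient and -1.95 (SE 0.141, adjusted p = 4.57e-07) in Ncoa6-KO cells, a 4.72-fold and a 3.85-fold drop. Smurf2 fell as well, by 0.75 (SE 0.131, adjusted p = 4.82e-04) and by 0.88 (SE 0.131, adjusted p = 1.66e-04) on the log2 scale. Smurf1 rose, by log2 fold changes of 0.48 (SE 0.108, adjusted p = 0.00285) and 0.57 (SE 0.107, adjusted p = 8.70e-04), so these close relatives, both regulators of TGF-beta and BMP receptors and SMADs, moved apart in both genotypes. The calls on Wwp1, Smurf1 and Smurf2 held under every alternative tried, library left out included.

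**Figure D3:**
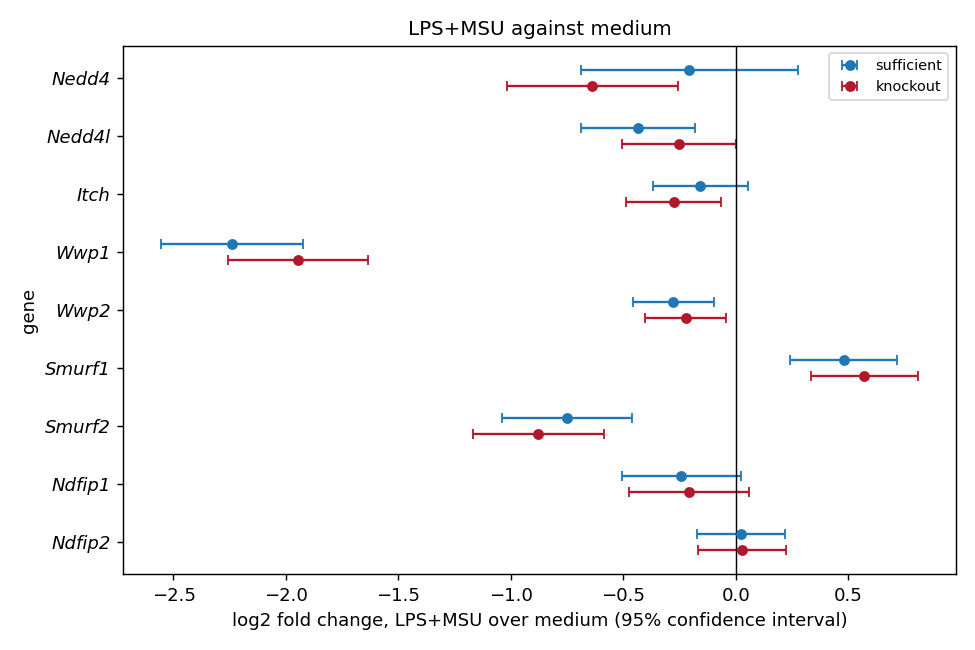
Log2 fold change of LPS + MSU over medium (horizontal axis) for each of the 9 genes in Ncoa6-sufficient and Ncoa6-KO BMDMs. Points are edgeR estimates and bars 95% confidence intervals from 2 libraries per group; Wwp1 lies at -2.24 and -1.95 and Smurf1 at 0.48 and 0.57.

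As the relatives Smurf1 and Smurf2 changed in opposite directions, their RefSeq windows (GRCm38.p6, both genes on the reverse strand) are set side by side, with capitals marking GGGCGG on either strand.
Smurf1, chr5:144965781-144966080: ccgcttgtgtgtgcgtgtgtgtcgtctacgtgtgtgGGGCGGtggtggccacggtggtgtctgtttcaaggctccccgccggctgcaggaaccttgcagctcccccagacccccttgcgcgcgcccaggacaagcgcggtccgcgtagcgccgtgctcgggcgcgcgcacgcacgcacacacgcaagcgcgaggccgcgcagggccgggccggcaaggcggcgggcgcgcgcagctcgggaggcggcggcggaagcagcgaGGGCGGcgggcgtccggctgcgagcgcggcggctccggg
Smurf2, chr11:106920666-106920965: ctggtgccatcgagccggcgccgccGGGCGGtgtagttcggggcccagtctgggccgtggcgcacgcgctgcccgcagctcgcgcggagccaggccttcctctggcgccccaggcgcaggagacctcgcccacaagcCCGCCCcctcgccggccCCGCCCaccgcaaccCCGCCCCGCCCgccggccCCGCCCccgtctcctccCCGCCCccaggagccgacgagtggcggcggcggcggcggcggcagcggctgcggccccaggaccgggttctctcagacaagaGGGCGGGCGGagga
Smurf1 held 49 CpG and 2 GGGCGG matches, and Smurf2 43 CpG and 9 GGGCGG matches, some of them overlapping. Neither held the AP-1, TATA box or half-site letters. Over all windows 35.7% held a GC box match. These too are letter matches only, and a part of them in the stimulus effects was not tested.

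Smaller stimulus effects were seen at the remaining members and depended more on the scale and on single libraries. Nedd4l fell by 0.43 (SE 0.115, adjusted p = 0.00743) in Ncoa6-sufficient cells and gave -0.25 (SE 0.114, adjusted p = 0.0858) in Ncoa6-KO cells; the first call was lost with DESeq2 (-0.32, adjusted p = 0.0516) and without sufficient medium replicate 2 (-0.40, adjusted p = 0.050003) or sufficient LPS + MSU replicate 2 (-0.38, adjusted p = 0.0594), and the second was gained without KO medium replicate 2 (-0.42, adjusted p = 0.00537). Wwp2 fell by 0.28 (SE 0.0816, adjusted p = 0.0131) and by 0.22 (SE 0.0817, adjusted p = 0.0393), calls that were lost with the DESeq2 size factors (-0.17 and -0.17, adjusted p = 0.108 and 0.113). The call on Wwp2 was also lost without any of the 4 Ncoa6-sufficient libraries except medium replicate 1 (-0.27 to -0.22) and, in Ncoa6-KO cells, without any of the 8 libraries (-0.24 to -0.22). Itch gave -0.16 (SE 0.0961, adjusted p = 0.191) and fell by 0.28 in Ncoa6-KO cells (SE 0.0961, adjusted p = 0.0316), which was lost with the DESeq2 size factors (-0.22, adjusted p = 0.0760) and without KO medium replicate 1 (-0.20), KO LPS + MSU replicate 1 (-0.25) or KO LPS + MSU replicate 2 (-0.31).

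Nedd4 itself gave a log2 stimulus effect of -0.21 (SE 0.219) in Ncoa6-sufficient cells, where its values overlapped. In Ncoa6-KO cells it was lower by 0.64 (SE 0.172), going from 417 and 427 to 238 and 305. Without KO LPS + MSU replicate 1 the change was -0.48. The medium values were among those that chose Nedd4, so both stimulus effects are given as a description with no test. The test of the difference between these effects is the interaction above, which belongs to the contrast that chose Nedd4 and is not tested. The adaptors did not pass: Ndfip1 gave -0.24 (SE 0.121, adjusted p = 0.112) and -0.21 (SE 0.12, adjusted p = 0.170), and Ndfip2 0.02 (SE 0.0882) and 0.03 (SE 0.0879). Ndfip2 was the flattest member, with all 8 libraries between 969 and 1078 normalized counts. Ndfip1 passed in Ncoa6-KO cells without KO medium replicate 2 (-0.34, adjusted p = 0.0473).

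To compare levels between genes, counts were divided by exon length (RPKM on TMM-scaled libraries). Wwp1 made up the largest share of the summed RPKM of the 9 genes in medium, at 44.7% ± 0.200 (SD; 2 libraries a group) for the Ncoa6-sufficient and 46.6% ± 4.07 for the Ncoa6-KO group, and 16.3% ± 0.258 and 20.5% ± 1.06 after LPS + MSU. Ndfip1 then held the largest share, at 29.3% ± 0.933 and 27.9% ± 3.09, while in medium it came after Wwp1 with 20.0% ± 0.826 and 19.2% ± 0.259. Nedd4 ranked lowest of the 9 in every group: its share was 0.331% ± 0.0640 in Ncoa6-sufficient and 1.52% ± 0.248 in Ncoa6-KO medium, and 0.499% ± 0.0840 and 1.63% ± 0.314 after LPS + MSU. In KO cells it remained below Nedd4l, at 3.14% and 4.44%. Shares divided by the longest transcript instead put Wwp1 at 32.8% and 34.7% in medium and left Nedd4 lowest in every group.

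**Figure D4:**
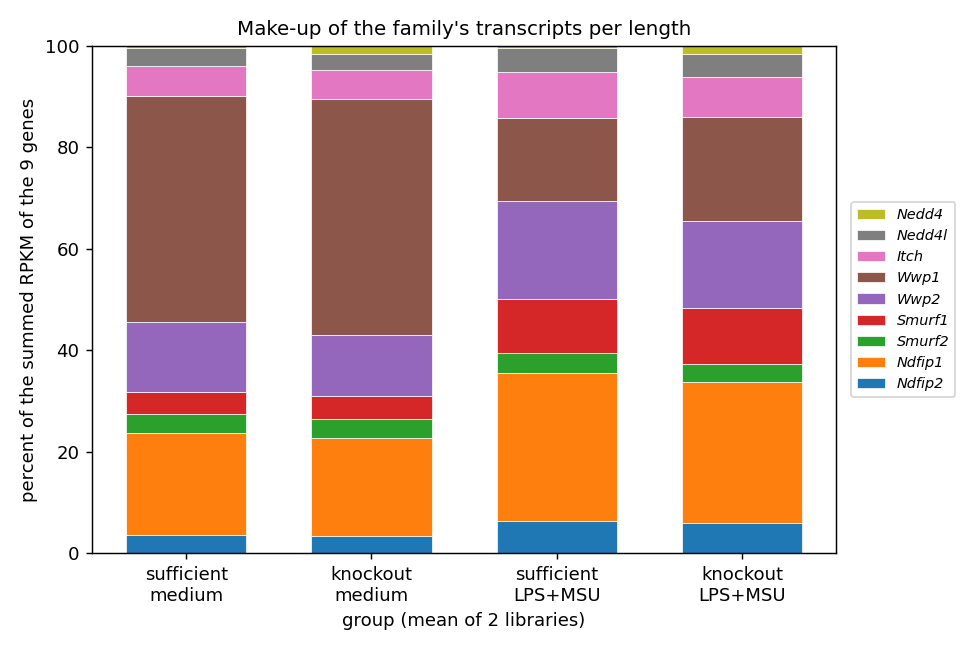
Share of the summed RPKM of the 9 genes (vertical axis, percent) that each gene made up, as the mean of 2 libraries in each group. Wwp1 shrinks from 44.7% and 46.6% in medium to 16.3% and 20.5% after LPS + MSU, and Nedd4 stays under 2 percent in all groups.

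The summed RPKM of the family was 82.4 and 79.4 in Ncoa6-sufficient and 96.3 and 78.1 in Ncoa6-KO medium, and 47.0 and 46.7 against 52.6 and 51.2 after LPS + MSU. Without Nedd4 the sums were 82.1 and 79.2 against 94.99 and 76.8, and 46.8 and 46.5 against 51.8 and 50.3. The excess in KO cells after stimulation was thus there without Nedd4, and the largest part of it was Wwp1, at 10.6 against 7.66 RPKM. The HECW ligases, the remaining relatives, were near silent: Hecw1 had 1 count in all 8 libraries together and was not tested, and Hecw2 had 11 and 11 counts in Ncoa6-sufficient medium, 5 and 4 in Ncoa6-KO medium and 1 or 2 in each stimulated library.

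Across the 8 libraries the other members correlated weakly with Nedd4, at Pearson r of -0.03 (Wwp2) to 0.40 (Ndfip2), while Wwp1 and Smurf2 (r = 0.94) or Wwp2 and Smurf1 (r = -0.95) went together or apart with the stimulus. Among 11218 genes whose mean normalized count reached 50, those most like Nedd4 were Dynlt3 (r = 0.996), Edil3 (0.987), Kctd17 (0.971), Pecr (0.967) and Fggy (0.966), and those most unlike it Gpaa1 (-0.974), Pkmyt1 (-0.967) and Gars (-0.958). Dynlt3, a light chain of cytoplasmic dynein, went from 1874 ± 77.96 to 2376 ± 11.96 normalized counts in medium and from 1853 ± 36.1 to 2247 ± 22.3 after LPS + MSU. Kctd17, an adaptor of cullin-3 ubiquitin ligases, went from 262 ± 7.14 to 453 ± 20.1 and from 215 ± 1.04 to 389.6 ± 44.6. Gpaa1, a subunit of the GPI transamidase, fell short in KO cells, at 1468 ± 3.67 against 1164 ± 65.9 and 1516 ± 53.2 against 1200.03 ± 29.1. All these values share their libraries and the genotype split, and they are a ranking of likeness with no test.

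The genes around the members were examined because the reads of overlapping genes, or a change over a whole region, could enter these counts. Nedd4 (chromosome 9, 72662346 to 72749852, forward strand, GRCm38, 10 annotated transcripts) is overlapped on its own strand by 4 small genes, A530064N14Rik, Gm36936, Gm37955 and Gm7265, none of which passed the filter. Of 57 genes that start within 500 kb of the Nedd4 start, 20 were tested. The shares called for the KO effect over all genes were 1.88% in medium and 3.59% after LPS + MSU. Among the 19 others, 0 passed for the KO effect in medium and 1 after LPS + MSU: Ccpg1, a receptor for selective autophagy of the endoplasmic reticulum, at 0.61 (adjusted p = 0.0498). That call was lost without any library other than those of KO medium, with adjusted p between 0.0712 and 0.241 at log2 fold changes of 0.52 to 0.67. With all libraries kept, the Ccpg1 call was also lost in edgeR with the DESeq2 size factors (adjusted p = 0.0644) or filterByExpr (0.0546). It was lost as well with limma-voom (0.0780) and in edgeR with only the 4 libraries compared (0.0551). Ccpg1 gave 0.19 in medium. No 50-base word of any member's exons occurred in another member, and the share of words found in any other gene was at most 5.56%, that of Wwp1 with its pseudogene Gm13416.

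**Figure D5:**
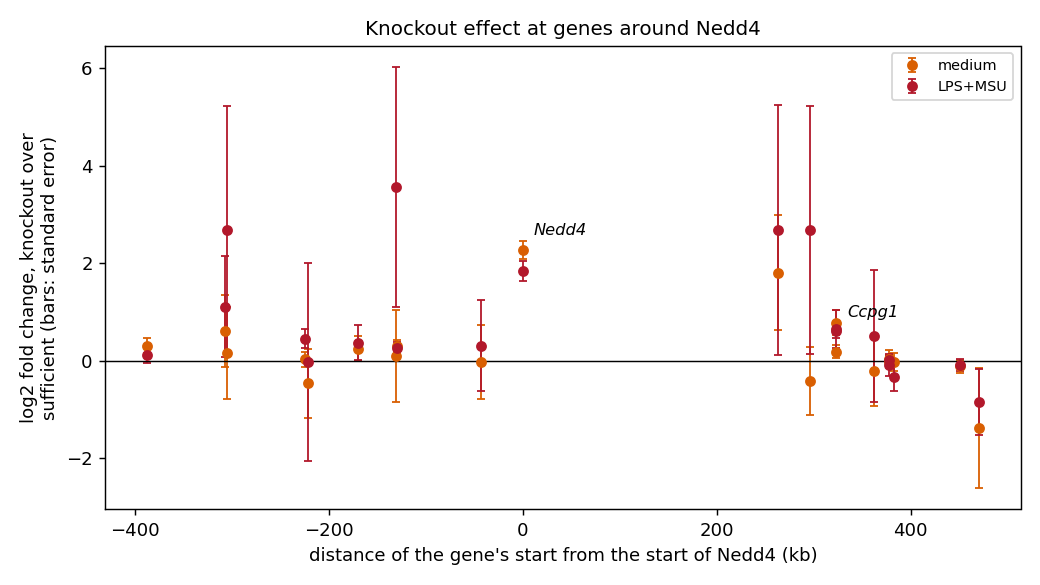
Log2 fold change of Ncoa6-KO over Ncoa6-sufficient BMDMs (vertical axis, bars are standard errors) against the distance in kb between a gene's start and that of Nedd4, for the 20 tested genes within 500 kb. Nedd4, at distance 0, stands at 2.28 and 1.85; the points with wide bars are genes with few counts, and among the 19 others Ccpg1 passed, after LPS + MSU.

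Itch lies on the same chromosome as the targeted gene, at chromosome 2, 155133509 to 155226855, and its start is 340.4 kb from that of Ncoa6. Between them, 6 of 9 genes were tested, where the shares called over all genes were 1.88% in medium and 3.59% after LPS + MSU. Of the 5 other than Ncoa6, 0 passed in medium and 2 after LPS + MSU, Map1lc3a (LC3A, an autophagosome protein) at 0.76 (adjusted p = 0.0422) and Trp53inp2 (an LC3-binding autophagy protein) at 0.57 (adjusted p = 0.0194). Itch gave -0.05 there. Leaving out any stimulated library but sufficient LPS + MSU replicate 2 lost the Trp53inp2 call (0.45 to 0.57), and leaving out any of the 4 lost that on Map1lc3a (0.62 to 0.90). The Map1lc3a call was also lost with the DESeq2 size factors in edgeR (adjusted p = 0.0510) and with limma-voom (0.0749). With only the 4 libraries compared edgeR called neither Map1lc3a (adjusted p = 0.0788) nor Trp53inp2 (0.0699). In medium Trp53inp2 gave 0.39 (edgeR adjusted p = 0.0981). There it passed with DESeq2 (adjusted p = 0.0466) and in edgeR without a filter (0.0135). It also passed with a replicate block across all groups (0.0259) or within each genotype (9.60e-04). Wwp1 lies on chromosome 4, Smurf1 on chromosome 5, Wwp2 on chromosome 8, Smurf2 on chromosome 11, Ndfip2 on chromosome 14 and both Nedd4l and Ndfip1 on chromosome 18, so the family is spread over 8 chromosomes.

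Other proteins of the pathway were read from lists chosen for their known links to the ligases. Over all genes, 1.88% were called for the KO effect in medium and 3.59% after LPS + MSU. Among 19 adaptors and membrane recruiters, 1 was higher and 1 lower in Ncoa6-KO medium, and 1 was higher after LPS + MSU; their median log2 fold change was -0.08 and 0.10, against -0.03 and 0.00 over all genes. Laptm4b, a lysosomal membrane protein with PY motifs, was higher in KO medium by 0.70 (SE 0.145, adjusted p = 0.0398), at 166 against 270.2 mean normalized counts. Arrb2, beta-arrestin 2, was lower by 0.56 (SE 0.102, adjusted p = 0.0245) and gave -0.39 after LPS + MSU (adjusted p = 0.0716). After LPS + MSU it passed with DESeq2 (adjusted p = 0.00908) and in edgeR with the DESeq2 size factors (0.0473) or without a filter (0.0176). It also passed there with a replicate block across all groups (0.0189) or within each genotype (0.00123). Arrdc3, an arrestin-domain protein that links receptors to Nedd4-family ligases, was higher after LPS + MSU by 0.91 (SE 0.192, adjusted p = 0.0288) and gave 0.35 in medium (adjusted p = 0.251). In medium it passed in edgeR with a replicate block across all groups (adjusted p = 0.0282) or within each genotype (0.00297). The Arrdc3 call after LPS + MSU was lost with limma-voom (adjusted p = 0.102) and in edgeR with only the 4 libraries compared (0.117). Laptm4b, not called after LPS + MSU in the main fit, passed there in edgeR with a replicate block within each genotype (0.53, adjusted p = 0.0206). Each of these calls in the main fit was lost with single libraries left out. For Laptm4b it was any of the 4 medium or either KO LPS + MSU library (0.56 to 0.86), for Arrb2 either sufficient medium library or KO medium replicate 2 (-0.63 to -0.48), and for Arrdc3 either sufficient LPS + MSU library or KO LPS + MSU replicate 2 (0.66 to 1.04).

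Of 25 substrates and partners, 24 were tested, with 0 called in medium and 1 higher and 1 lower after LPS + MSU. The shares called over all genes were 1.88% and 3.59%. Tgfbr1, the type I TGF-beta receptor and a target of the Smurf proteins, was higher in KO cells by 0.69 (SE 0.119, adjusted p = 0.0132), at 509 against 819 mean normalized counts, and gave 0.02 in medium. Notch1, which Itch and Nedd4 ubiquitinate, was lower by 0.66 (SE 0.127, adjusted p = 0.0201), at 4395 against 2779. In medium Notch1 passed, lower in KO cells, in edgeR without a filter (adjusted p = 0.0224). It also passed there with a replicate block across all groups (0.0302) or within each genotype (0.00436). The calls on Tgfbr1 and Notch1 after LPS + MSU were lost without sufficient LPS + MSU replicate 1 (0.58 and -0.59), KO LPS + MSU replicate 1 (0.65 and -0.70) or KO LPS + MSU replicate 2 (0.70 and -0.64). With only the 4 libraries compared the Tgfbr1 call was lost too (edgeR adjusted p = 0.0523). Among 18 other HECT ligases 0 passed in medium. Among 15 ubiquitin-conjugating enzymes Ube2l6, which serves ISG15 conjugation, was lower in KO medium by 0.73 (SE 0.157, adjusted p = 0.0462), a call lost without any library other than KO medium replicate 1 (-0.90 to -0.53), and 0 passed after LPS + MSU. The Ube2l6 call was also lost in edgeR with the DESeq2 size factors (adjusted p = 0.0543), filterByExpr (0.0560) or only the 4 libraries compared (0.0526). None of 9 deubiquitinases and kinases that act on the family passed in edgeR in either condition, and none had an unadjusted p under 0.05.

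The same lists were read for the response to LPS + MSU, for which 55.2% of all genes passed in Ncoa6-sufficient and 53.1% in Ncoa6-KO cells. Among the adaptors 14 of 19 passed in each genotype, 4 higher and 10 lower. Arrdc3 fell by 3.79 and by 3.23 on the log2 scale and Arrb1, beta-arrestin 1, by 3.58 and by 3.11, while N4bp3, a Nedd4-binding protein, went from 82 to 138 counts per library in medium to 1 to 3 after stimulation. Of the substrates and partners 13 were higher and 7 lower in Ncoa6-sufficient cells and 14 higher and 5 lower in Ncoa6-KO cells. Tnfaip3 (A20), which works with Itch to end NF-kappaB signalling, rose by 4.76 and 4.60, Ripk2 by 4.53 and 4.59, and Cflar (c-FLIP), an Itch substrate, by 4.09 and 4.07. Of the deubiquitinases and kinases 7 of 9 were higher in both genotypes, among them Sgk1 (1.60 and 1.76) and Sgk3 (2.44 and 2.25), kinases that phosphorylate Nedd4l, and Cyld (0.65 and 0.70). Of the other HECT ligases 13 and 11 of 18 passed, with Herc6 (3.91 and 4.27), Arel1 (3.08 and 2.91) and Hectd4 (1.53 and 1.75) changed most among those higher, and of the conjugating enzymes 13 and 14 of 15, with Ube2e2 (1.85 and 1.73), Ube2e1 (1.76 and 1.55) and Ube2l6 (1.68 and 2.26).

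Markers of other cell types were read beside the Nedd4 difference. Over all genes, 1.88% were called for the KO effect in medium and 3.59% after LPS + MSU. The summed normalized count of 6 endothelial markers was 4475 to 5649 in Ncoa6-KO and 3470 to 3973 in Ncoa6-sufficient medium, and 6710.1 to 8815 against 8229 to 9362 after LPS + MSU. Most of it was Vwf in medium, with means of 4567 in KO and 3074 in sufficient cells, and Kdr and Vwf after LPS + MSU. In edgeR 1 of the 6 was called in medium, Esam, higher in KO cells by 2.28 (123 against 24.9 mean normalized counts, adjusted p = 0.0419), and 2 after LPS + MSU, Esam, higher by 2.94 (139 against 17.9, adjusted p = 0.0200), and Vwf, higher by 0.71 (3359 against 2048, adjusted p = 0.0446). Pecam1, Cdh5 and Kdr gave values below 0 in both conditions (-1.23 to -0.64) with no call. In medium Vwf passed, higher in KO cells, with DESeq2 (0.59, adjusted p = 0.0183) and in edgeR without a filter (0.57, adjusted p = 3.43e-05). It also passed there in edgeR with a replicate block across all groups (0.0262) or within each genotype (7.03e-05). The Esam calls were lost without either sufficient library of the condition or its KO replicate 2 (1.68 to 2.33 in medium and 2.07 to 3.45 after LPS + MSU), and the Vwf call without any library but those of KO medium and sufficient LPS + MSU replicate 2 (0.47 to 0.73). With limma-voom the Esam call was also lost in medium (adjusted p = 0.0912) and after LPS + MSU (0.103). In edgeR it was lost with filterByExpr in medium (0.0540) and with only the 4 libraries compared after LPS + MSU (0.0736). The Vwf call after LPS + MSU was also lost in edgeR with the DESeq2 size factors (0.0538), filterByExpr (0.0523) or only the 4 libraries compared (0.106). Mast cell and basophil markers summed to 327 to 599 against 284 to 351 in medium and 69.3 to 81.1 against 23.6 to 49.6 after LPS + MSU, nearly all of it Kit, and Fcer1a was at 0 in every library. Dendritic cell markers summed to less in KO cells (460.2 to 585 against 767 to 777, and 617 to 841 against 1147 to 1167), nearly all of it Itgax in medium; Itgax, the integrin CD11c, was called lower after LPS + MSU (-0.74, edgeR adjusted p = 0.0255), but not without any library other than those of KO medium (-0.97 to -0.56). With only the 4 libraries compared the Itgax call was lost too (edgeR adjusted p = 0.0777). In medium Itgax passed, lower in KO cells, with DESeq2 (-0.56, adjusted p = 0.0394) and in edgeR without a filter (-0.58, adjusted p = 1.31e-04). It also passed there in edgeR with a replicate block across all groups (0.00641) or within each genotype (1.38e-05). Stromal sums overlapped in medium and were 353 to 841 in KO against 917 to 967 in sufficient cells after LPS + MSU. The part of these in the Nedd4 difference was not tested.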

How the data were processed

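RNA of 8 BMDM cultures was made into stranded mRNA libraries and sequenced as paired ends. The authors aligned reads with STAR 2.7.3a to GRCm38 (annotation release 101) and deposited expected counts per gene from RSEM 1.3.3 (their processing notes also name MultiQC and DESeq2). Here those estimated counts were rounded, genes with a sum of at least 10 were kept, and edgeR 4.0.16 (R 4.3.3, TMM, quasi-likelihood, 4 residual degrees of freedom, median biological coefficient of variation 0.114) fitted all 4 groups together. P-values were adjusted over all 17625 genes (Benjamini-Hochberg). With 2 libraries against 2, an exact two-sided permutation test cannot go below 0.333, so p-values rest on the pooled spread. At 25281955 to 33673552 counts per library, Nedd4 (48 to 600 counts) is the member measured least precisely. Symbols came from the reference name table (50295 of 50615 matched), positions from GENCODE vM21 and promoter windows from RefSeq; protein sequences were not used here. Of the other HECT ligases, 1 result is not reported here. Marker genes were named after their values were seen, where they were called or made up most of a sum.

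The members and lists were chosen with earlier results of these data known. The KO contrasts of Nedd4 were therefore not tested, and its stimulus effects were only described, though Nedd4 is in the counts of members called for the stimulus. Named genes were the members, Ncoa6, the HECW ligases, list genes called in a KO contrast, at most 3 per list with the largest stimulus effects in both genotypes, neighbours within 500 kb of Nedd4 or between Itch and Ncoa6, and the 5 genes most like and 3 most unlike Nedd4. The fit was tested on simulated counts. Alternatives were DESeq2 1.42.0, its size factors in edgeR, no filter, filterByExpr, limma-voom (limma 3.58.1), 2 replicate blocks, only the 4 libraries compared, and each library left out. Figures were drawn with matplotlib 3.10.9.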

Additional observations from a re-analysis of the deposited data

How the results depend on the processing

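With all libraries kept, or only the 4 compared, 64 of 64 values of the 8 members other than Nedd4 in medium and 61 of 64 after LPS + MSU kept their direction and their side of the threshold for the KO effect; the exceptions were Wwp1 after LPS + MSU, so that 1 member passed there with no filter and with either replicate block, and 0 to 1 with a library left out. The log2 fold change of Nedd4 in medium ranged from 2.08 to 2.53 with a library left out (2.53 without sufficient medium replicate 1) and from 1.65 to 2.02 after LPS + MSU. Genes called over the whole table for the KO effect numbered 1152 with no filter and 22 to 372 with a library left out in medium (22 and 93 without sufficient medium replicate 1 and replicate 2, 116 without KO medium replicate 2), and 1611 with no filter, 139 with only the 4 libraries compared and 58 to 761 with a library left out after LPS + MSU (60 without sufficient LPS + MSU replicate 1, 58 without KO LPS + MSU replicate 2, and 374 to 393 without either sufficient medium library or KO LPS + MSU replicate 1); for the interaction they numbered 43 with DESeq2, 269 with no filter and 0 to 23 with a library left out (23 without KO medium replicate 1). Members called for the stimulus effect numbered 3 with DESeq2 and 3 to 5 with a library left out in Ncoa6-sufficient cells (3 without sufficient medium or LPS + MSU replicate 2), and 3 to 7 in Ncoa6-KO cells (3 without KO LPS + MSU replicate 1). The cause of these shifts was not tested.

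Several values near 0 changed sign with a library left out. In medium the KO effect then ranged from -0.097 to 0.18 for Ndfip1 (-0.020 without sufficient medium replicate 2), from -0.0037 to 0.14 for Itch, from -0.082 to 0.40 for Wwp1, from -0.26 to 0.094 for Nedd4l, from -0.12 to 0.15 for Tgfbr1 and from -0.053 to 0.39 for Ccpg1. After LPS + MSU it ranged from -0.14 to 0.036 for Itch, from -0.26 to 0.087 for Smurf2, from -0.073 to 0.20 for Ndfip1 from -0.029 to 0.11 for Ndfip2 and from -0.14 to 0.014 for Cd14. The stimulus effect ranged from -0.41 to 0.042 for Nedd4 in Ncoa6-sufficient cells and from -0.047 to 0.091 for Ndfip2 in Ncoa6-KO cells, and with no filter Ndfip2 gave -0.0043 in Ncoa6-sufficient cells. The interaction ranged from -0.16 to 0.18 for Ndfip1, from -0.11 to 0.024 for Ndfip2, from -0.064 to 0.18 for Smurf1 and from -0.0085 to 0.068 for Wwp2; with DESeq2, or its size factors in edgeR, it was -0.021 and -0.021 for Ndfip1 and -0.050 and -0.050 for Ndfip2, and with filterByExpr -0.0027 for Ndfip2.

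The replicate numbers do not establish pairs, as only 2 are shared and no label ties them to a mouse, day or litter. Differences between replicate 1 and replicate 2 correlated over genes at r = 0.257 and 0.285 between conditions of a genotype and at 0.050 to 0.124 between genotypes. With a replicate block across all groups 1023 genes were called for the KO effect in medium, 1532 after LPS + MSU and 86 for the interaction, and with a replicate block within each genotype 1893, 2594 and 444; Wwp1 after LPS + MSU then had adjusted p = 0.0225 and 7.94e-04. Depth limits Nedd4 most, which had 48 to 133 counts in Ncoa6-sufficient libraries.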
